A study of Homo sapiens with 4 samples.

Results

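The most abundant features of the count table that carry only a clone name, such as RP5-940J5.9, were examined in C4-2 prostate cancer cells. A clone name records the bacterial clone on which a transcript was first mapped. A feature was a member if its name ended in a dot and digits, did not start with ENSG, and its mean over the 4 libraries was 1000 counts or more. This gave 168 members of 59385 features, and of 19266 clone-named features in all. The members were thus chosen by their own counts, so their abundance is given as a description, without a test. C4-2 is an androgen-independent human line derived from LNCaP, a line of luminal prostate epithelial character. The 2 groups were cells kept for 3 days in RPMI medium with 50 mM BHB (β-hydroxybutyrate, the main circulating ketone body) and Control cells in RPMI medium alone, with 2 libraries each. Both groups had 10% fetal bovine serum and antibiotics in their stock culture, and both are 1 cell line. The title of the study concerns ketones and EZH2, a histone methyltransferase, in prostate cancer. The labels do not say whether replicates were separate cultures, so p-values reflect how far these libraries differ, which may be technical. In these bulk RNA samples a change in the number of cells of a kind and a change in RNA per cell cannot be told apart.

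Most human clone-named features are noncoding transcripts that have no approved symbol. Many are antisense RNAs, transcripts read from the strand opposite a coding gene; such RNAs are usually far less abundant than the mRNA opposite and some are known to regulate it. A stranded library keeps the strand of each RNA, and a count table shows antisense RNA correctly only if the counting step is told which read strand the kit reports. The labels name a stranded total RNA kit, while the strand setting of the counting is not given in the sources used here. Whether counts listed under a member came from its own strand or from the coding gene opposite was therefore not tested.

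The table held 2272004 and 2233711 counts in the BHB libraries and 2565080 and 2237634 in the Control libraries. Of 15 luminal prostate markers none was at 0 in all libraries, and they summed to 11193 and 10867 counts with BHB and 13628 and 13161 in Control, mostly from KRT8, a simple-epithelium keratin. Basal, endothelial and fibroblast markers summed to 12 counts or fewer in each library, 5 neuroendocrine markers to 29 or fewer, and 5 leukocyte markers to 57 to 76. The Control libraries differed from each other by more than the BHB libraries did, with a chi-square per degree of freedom of 15.1 over all features, against 2.59 between the BHB libraries.

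Because clone names change between annotation releases, members were placed by position. The table ran in genome order for 99.5% of neighbouring rows with known places, and a member was placed where exactly 1 gene of GENCODE release 29 between its flanking rows had the member's exon length. Applied to 4248 noncoding features with known places, this gave 2443 of them a gene, of which 5 were wrong (0.205%). It placed 138 of the 168 members (82.1%), whose files' names are kept here. Of the placed members, 136 had exons opposite exons of a coding gene, on the other strand. Exons of a coding gene, also called coding exons here, were those of any of its annotated transcripts, of any transcript type. The following sequences show this relation for the 4 most abundant placed members. They also show it for some of the members with the most positive or most negative differences between BHB and Control. Each is 90 bases of the member's transcript in GENCODE release 29 (GRCh38), 5′ to 3′, and capitals mark bases opposite coding sequence.
RP5-940J5.9, opposite GAPDH: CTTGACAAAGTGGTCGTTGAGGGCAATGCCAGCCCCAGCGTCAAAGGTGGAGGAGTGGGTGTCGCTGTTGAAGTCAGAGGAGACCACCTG
GAPDH, coding strand of the same bases: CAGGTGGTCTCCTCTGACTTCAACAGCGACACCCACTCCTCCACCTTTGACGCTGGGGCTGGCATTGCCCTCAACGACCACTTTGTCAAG
RP11-290D2.6, opposite TPT1: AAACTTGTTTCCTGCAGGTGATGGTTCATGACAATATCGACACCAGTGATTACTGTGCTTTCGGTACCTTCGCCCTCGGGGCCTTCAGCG
RP11-138I1.4, opposite UBB: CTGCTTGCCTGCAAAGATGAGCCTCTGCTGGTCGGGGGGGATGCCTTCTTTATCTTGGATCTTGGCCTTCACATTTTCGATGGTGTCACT
AC010761.8, opposite RPL23A: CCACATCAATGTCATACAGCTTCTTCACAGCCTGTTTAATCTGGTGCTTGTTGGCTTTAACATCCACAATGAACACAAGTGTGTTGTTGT
RP11-354M1.2, opposite CDH1: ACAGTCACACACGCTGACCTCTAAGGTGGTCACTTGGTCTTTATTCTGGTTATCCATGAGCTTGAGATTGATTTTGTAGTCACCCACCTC
CTD-2026K11.4, opposite IMP3: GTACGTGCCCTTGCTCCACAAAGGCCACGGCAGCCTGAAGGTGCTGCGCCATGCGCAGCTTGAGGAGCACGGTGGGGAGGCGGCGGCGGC
RP11-159D12.6, opposite SRSF1: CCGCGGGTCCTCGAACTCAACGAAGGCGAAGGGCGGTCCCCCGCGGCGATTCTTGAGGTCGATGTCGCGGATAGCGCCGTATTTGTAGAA
AC009133.15, opposite MAZ: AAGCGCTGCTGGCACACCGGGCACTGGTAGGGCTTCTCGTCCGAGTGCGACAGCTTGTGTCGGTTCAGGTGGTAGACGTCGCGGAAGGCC
CTD-2555O16.4, opposite MTHFD1: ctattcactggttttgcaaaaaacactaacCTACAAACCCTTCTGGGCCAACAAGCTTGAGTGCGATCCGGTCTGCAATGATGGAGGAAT

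The RP5-940J5.9 window lies at chr12:6537896-6537985 on the minus strand, and its reverse complement occurs in 9 transcripts of GAPDH, of any transcript type. Among the other abundant members, the TPT1 window lies at chr13:45340039-45340128 on the plus strand, the UBB window at chr17:16382421-16382510 on the minus strand and the RPL23A window at chr17:28722788-28722877 on the minus strand. The CDH1 window lies at chr16:68823437-68823526 on the minus strand, the IMP3 window at chr15:75639760-75639849 on the plus strand and the SRSF1 window at chr17:58006943-58007032 on the plus strand. The MAZ window lies at chr16:29807643-29807732 on the minus strand and the MTHFD1 window at chr14:64442106-64442195 on the minus strand. In the MTHFD1 window 60 bases lie opposite coding sequence, and the member's exon runs on past the end of the coding exon into bases that are intronic in MTHFD1. In the other windows all 90 bases lie opposite coding sequence.

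The members held 27.7% and 27.5% of all counts in the BHB libraries and 27.3% and 30.3% in the Control libraries. The mean share was 27.6% ± 0.148 with BHB and 28.8% ± 2.14 in Control (SD, n = 2 each), and the difference of -1.20 points had a two-sided exact permutation p of 1, where 0.333 is the smallest that 2 against 2 libraries allow. Members were 7 of the 10 and 11 of the 20 most abundant features of the table, and 168 of the 409 features with a mean of 1000 or more. The counts were concentrated: the 5 most abundant members held 30.9% of them. The median member had a mean of 1853 counts and an exon length of 954.5 bases. At the lower edge, AC012314.8, RP11-56G10.2 and CTD-2369P2.4 had means of 1017.25, 1016.5 and 1007.25 counts and were included. RP11-24C3.2, RP11-272L14.3 and RP11-886P16.10, with means of 999.25, 995.25 and 979.25 counts, were left out by the same rule.

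The most abundant member, RP5-940J5.9, lay with all 422 of its exon bases opposite GAPDH, which encodes a glycolytic enzyme, at chr12:6537794-6538370 on the minus strand. It had 67029 and 66637 counts with BHB and 83633 and 84002 in Control, while GAPDH itself had 437 and 475 with BHB and 1791 and 301 in Control. The BHB libraries lay close together below both Control libraries in count, and after TMM scaling, a factor per library that centres most features, they still lay below both by a narrow margin. The second member, RP11-386G11.10, stood in the table between TUBA1B and TUBA1A, 2 alpha-tubulin genes, and was not placed. It had 43089 and 42073 counts with BHB and 62570 and 56820 in Control, and its BHB libraries were lower than both Controls. RP11-161H23.5, with 11361 and 11033 counts with BHB and 13761 and 13007 in Control, lay opposite TUBA1C, another alpha-tubulin gene, and XXbac-BPG252P9.9, with 9311 and 8747 with BHB and 9097 and 10033 in Control, lay opposite TUBB, a beta-tubulin gene. After scaling, the groups overlapped for both. Tubulin genes have near-identical copies, and how the counting treated reads that match several of them is not given in the sources used here, so these values are uncertain.

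RP11-290D2.6 lay wholly opposite TPT1, which encodes a translationally controlled tumour protein, at chr13:45340039-45341183 on the plus strand. It had 31596 and 30307 counts with BHB and 26616 and 31143 in Control. RP11-138I1.4 lay wholly opposite UBB, a polyubiquitin gene, at chr17:16382152-16382669 on the minus strand, with 23736 and 23536 counts with BHB and 27307 and 25921 in Control. For both members the groups overlapped after scaling. Of the 3 members opposite ribosomal protein genes among the 15 most abundant, AC010761.8 touched RPL23A with 155 of its 899 exon bases and had 23513 and 20664 counts with BHB and 19226 and 22208 in Control. XX-FW83563B9.5, opposite RPL10 on chromosome X, had 11585 and 11396 with BHB and 15244 and 15133 in Control, and KB-1208A12.3, opposite RPL30, had 11223 and 10979 with BHB and 12641 and 11701 in Control. Only the RPL10 member of these 3 had both BHB libraries outside the Control range after scaling, on the low side.

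RP11-498C9.2 and CTC-425F1.4 lay opposite genes of endoplasmic reticulum proteins, P4HB, a protein disulfide isomerase, and CALR, a calcium-binding chaperone. The first had 11937 and 11633 counts with BHB and 16195 and 14105 in Control, lower with BHB in both libraries, and the second had 9872 and 10257 with BHB and 10893 and 9997 in Control, with overlap. Both lay almost or wholly opposite exon bases outside coding sequence, with 2 of 529 and 0 of 270 exon bases opposite coding sequence. RP11-326A19.5, a processed pseudogene by its release 29 type, lay opposite ABHD2, a lipid hydrolase gene, and had 13319 and 13355 counts with BHB and 12128 and 12413 in Control. A processed pseudogene can share reads with its parent gene, so its value is uncertain too. AC009133.12, which lay opposite MAZ, a zinc finger transcription factor gene, and further coding genes, had 10711 and 10259 with BHB and 13075 and 11196 in Control. After scaling, the groups overlapped for both of these members. RP11-983P16.4 and CTB-102L5.9 were not placed; the first had 7891 and 7779 counts with BHB and 8094 and 8801 in Control, and the second had 8566 and 8648 with BHB and 7516 and 6721 in Control. CTB-102L5.9 was the one feature of the 15 whose BHB libraries were both above both Controls after scaling.

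**Figure D1:**
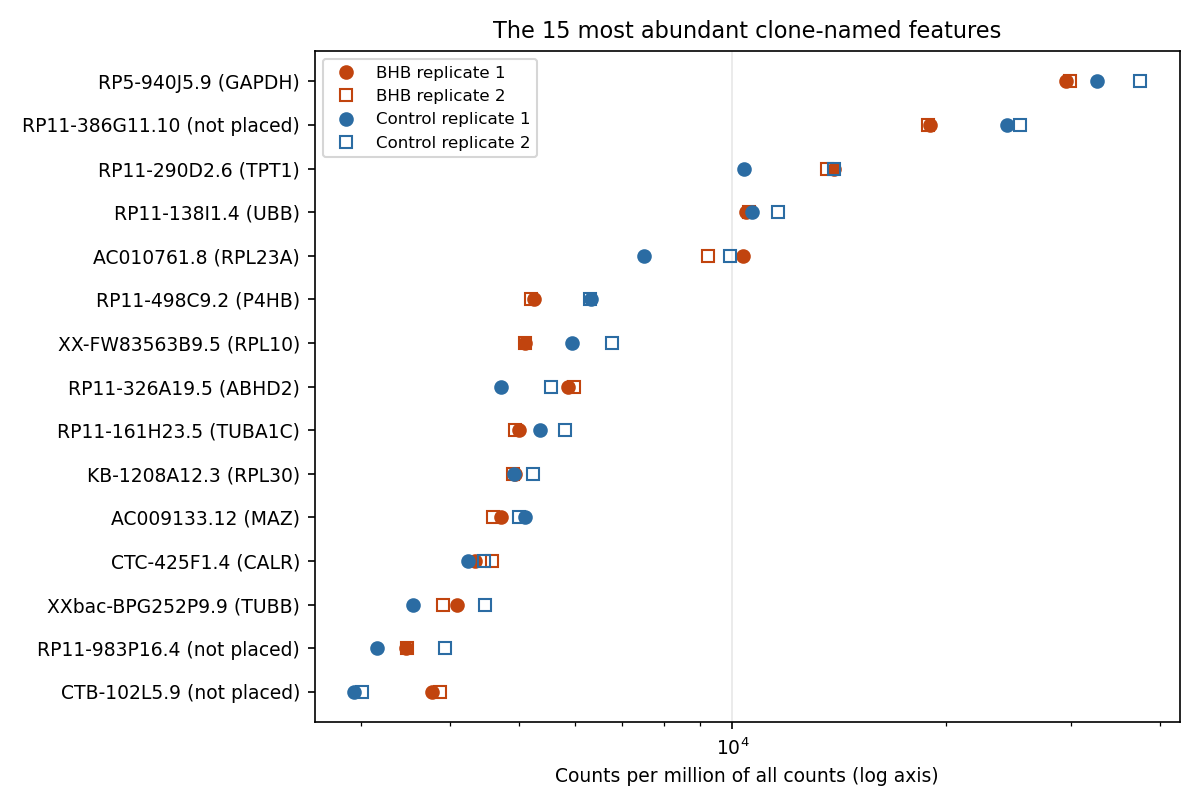
Abundance in CPM (counts scaled to the same library total), without a TMM factor (log axis), of the 15 most abundant members, 1 point per library, with BHB in red and Control in blue, and the coding gene opposite in brackets. RP5-940J5.9, opposite GAPDH, is the most abundant, and the BHB points lie closer together than the Control points for 11 of the 15 members.

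Position was shared by nearly all placed members, a property the choice of members did not use. Of 138 placed members, 136 (98.6%) had exons opposite coding exons, and they faced 133 distinct coding genes on 21 chromosomes that held members. Among clone-named features with 100 to under 1000 counts the share was 94.0% of those placed, with 10 to under 100 counts 69.4%, with 1 to under 10 counts 30.8%, and with under 1 count 5.76%. Between 77.7% and 82.5% of features could be placed in each of these classes. The 2 placed members without a coding gene opposite were RP11-666A8.13 and RP3-430N8.10, with means of 4837.5 and 1155 counts. RP11-666A8.13 overlapped exons of a coding gene on its own strand.

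**Figure D2:**
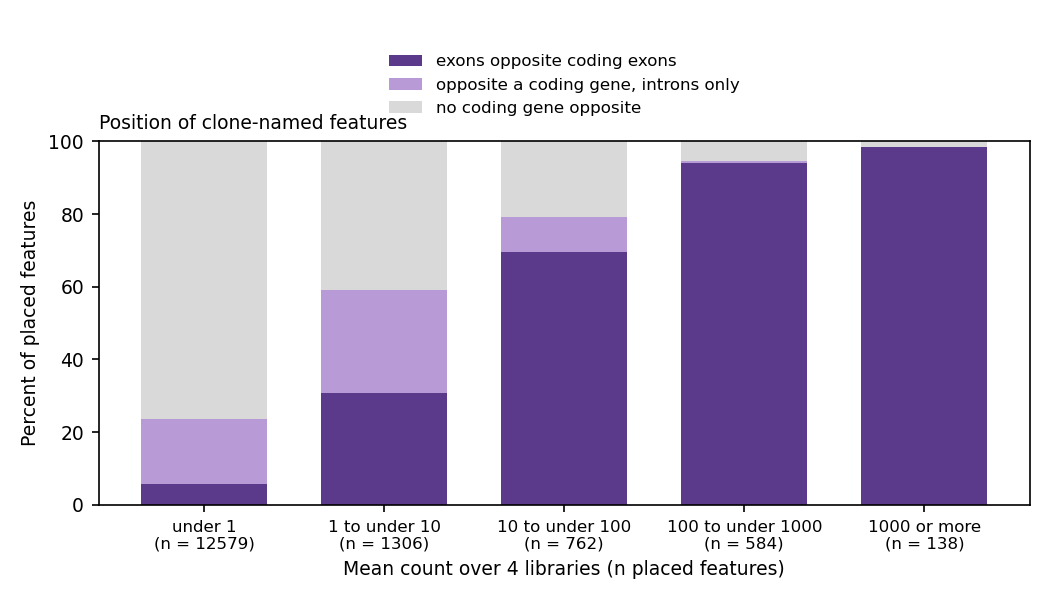
Percent of placed clone-named features (vertical axis) with exons opposite coding exons, opposite coding introns only, or with no coding gene opposite, by mean count over the 4 libraries. The share opposite coding exons runs from 5.76% under 1 count to 98.6% at 1000 counts or more.

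The release 29 type of the placed members was antisense for 118, TEC (a type kept for transcripts that await experimental proof) for 10, lincRNA for 3, protein coding for 3, sense intronic for 2, and processed pseudogene and bidirectional promoter RNA for 1 each. Of the 136, 55 had every exon base opposite coding exons, and the median member had 87.9% of its exon bases there, with 5.83% as the lowest. Coding sequence of at least 1 annotated transcript was touched by 99 members, while 37 faced only exon bases outside the annotated coding sequence. The member spanned the 3′ end of the coding gene in 35 pairs and the 5′ end in 14, 2 of which spanned both, and 89 spanned neither. MAZ, RAB1B, a small GTPase gene of vesicle transport, and MRPL4, a mitochondrial ribosomal protein gene, each had 2 members opposite, so these pairs share a coding gene. Members opposite 2 or more coding genes numbered 18, and for them the values given are those of the gene with the longest overlap.

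All 136 members placed opposite coding exons were denser than the coding gene opposite, in mean counts per kilobase of exon. The ratio of member to coding gene had a median of 260, with quartiles of 104 and 677 and a range of 1.69 to 3398. Density also depends on the listed exon lengths, and in plain counts the median ratio was smaller, at 47.9. By that measure 135 of 136 members were higher. The exception was RP11-688G15.3, with 2554 and 2344 counts with BHB and 2913 and 2551 in Control, opposite CCDC85C, a coiled-coil protein gene with 2729 and 2628 counts with BHB and 2809 and 2822 in Control. Because members were chosen for high counts and coding genes were not, this order is a description. The coding genes themselves had a median of 54 counts over the 4 libraries, 91 of them had a mean under 100, and 3 reached 1000.

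RP11-304M2.5, opposite BET1L, which encodes a vesicle fusion protein of the Golgi, had the highest ratio. It averaged 1260.75 counts over the 4 libraries, against 2.5 for BET1L. RP11-109D20.2 had 6657 and 7128 counts with BHB and 5917 and 6700 in Control, while SORD, the sorbitol dehydrogenase gene opposite, had 72 and 62 with BHB and 164 and 29 in Control. The lowest ratio was that of RP11-762I7.5, at 537 counts per kilobase against 318 for ORMDL2, a regulator of sphingolipid synthesis. RP11-762I7.5 is protein coding by its release 29 type and has 15.2% of its exon bases opposite ORMDL2. It also overlaps exons of 2 coding genes on its own strand, so this ratio is uncertain. AC005523.2 and AC091133.1 were the 2 members whose name and exon length both matched release 29, and so needed no placement by position. AC005523.2, opposite FEM1A, a substrate receptor of a ubiquitin ligase, had 4497 and 4373 counts with BHB and 4792 and 4786 in Control, while FEM1A had 17 and 9 with BHB and 32 and 12 in Control. AC091133.1, opposite SNF8, an endosomal sorting gene, had 1216 and 1157 with BHB and 1182 and 1390 in Control, while SNF8 had 278 and 271 with BHB and 314 and 315 in Control. Both placed by name were thus denser than the coding gene, at ratios of 704 and 43.4. Across the 136 pairs the counts of member and coding gene had a Spearman correlation of 0.304, where the points share the same 4 libraries.

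**Figure D3:**
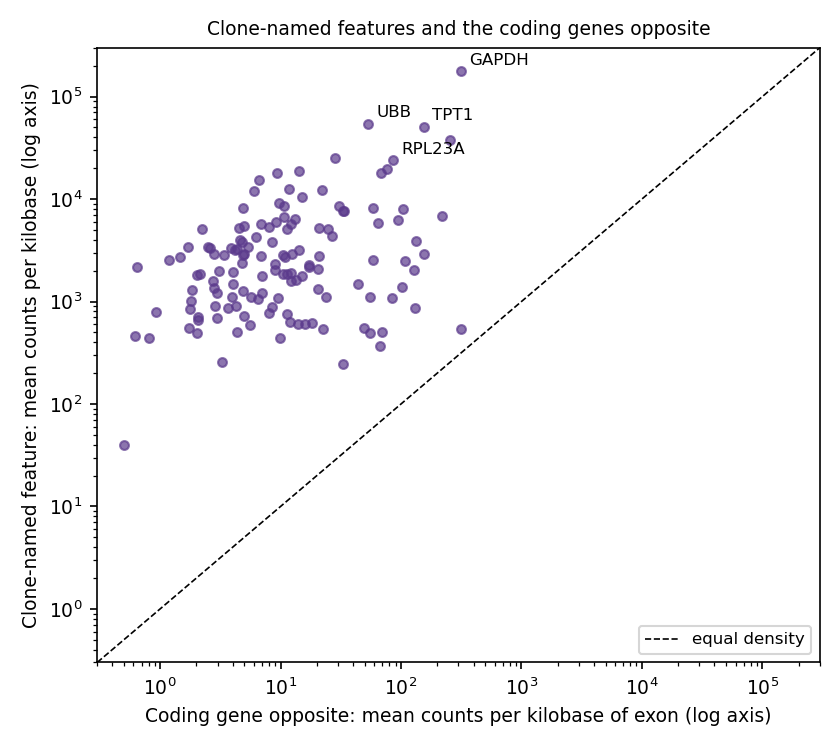
Mean counts per kilobase of exon over the 4 libraries for the 136 members placed opposite coding exons (vertical log axis). The horizontal log axis gives the coding gene opposite, with 1 point per member and the dashed line at equal density. Every point lies above the line, by 1.69 to 3398 times.

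Lists of widely expressed coding genes were read for members opposite them. Of 51 cytosolic ribosomal protein genes, a list without RPL23A, 3 had a member opposite, among them RPL10 and RPL30. Of 17 genes of glycolysis it was 2 (ALDOA and GAPDH), and of 15 genes of the cytoskeleton, chaperones and translation also 2 (TUBB and TPT1). In the edgeR test of BHB against Control, none of the 49, 15 and 14 genes of these lists that were tested passed the threshold in either direction. Their median log2 fold changes were -0.23, -0.54 and -0.23, against -0.03 over all tested features. These medians changed sign with the Control library used: without Control replicate 1 they were 0.60, 0.39 and 0.72, against 0.06 over the features of the 4-library fit, and without Control replicate 2 they were -0.71, -1.11 and -0.79, against 0.0045.

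No member passed the test of BHB against Control. In edgeR's quasi-likelihood test, 9295 features were tested, and 0% of them were called higher and 0% lower at a Benjamini-Hochberg adjusted p (FDR) under 0.05. All 168 members passed the filter on low counts and 0 were called; DESeq2 also called 0. At an unadjusted p under 0.05 there were 4 members (2.38%), against 2.26% of all tested features, and DESeq2 also gave 4. With total counts in place of TMM scaling there were 41 (24.4%), against 5.75% of all tested features. The log2 fold changes of members (BHB over Control) ran from -0.67 to 0.55, with a median of -0.07, against -0.03 for all tested features, and 65 of 168 were positive. The median SE was 0.26 among members and 0.51 among all tested features, so shares of members and of all tested features compare unlike precision. None of the members had an absolute log2 fold change of 1 or more, which 432 of all tested features had. The adjusted p was 0.9996 for every member.

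The BHB and Control libraries did not overlap, in TMM-scaled CPM, for 15 members that were higher with BHB (8.93%), against 15.1% of all tested features. They did not overlap for 38 members that were lower with BHB (22.6%), against 14% of all tested features. The split depended on the scaling: in CPM of the library total, 47 members were higher (28%, against 19.7% of all) and 55 lower (32.7%, against 13.8% of all). In both scalings 15 members were higher and 36 lower.

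Among members whose groups did not overlap, the most positive fold change was that of RP11-463I20.1, which lay wholly opposite ZNF770, a zinc finger protein gene. It had 1647 and 1596 counts with BHB and 1023 and 1216 in Control. Its TMM-scaled CPM averaged 722 ± 5.81 with BHB and 494 ± 178 in Control (SD, n = 2 each), a log2 fold change of 0.55 ± 0.29 (SE). RP11-431H16.3, opposite ARHGAP5, a GTPase-activating protein gene, had 2122 and 1991 counts with BHB and 1365 and 1523 in Control, a log2 fold change of 0.53 ± 0.28 (SE). Both BHB libraries lay above both Controls for these members, and the Control libraries lay further apart than the BHB libraries. Without Control replicate 1 the log2 fold change was 0.21 for RP11-463I20.1 and 0.23 for RP11-431H16.3, and without Control replicate 2 it was 1.01 and 0.93 for the same 2 members.

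RP11-611O2.5, opposite MDM2, the ubiquitin ligase of p53, had 1622 and 1741 counts with BHB and 1118 and 1316 in Control, a log2 fold change of 0.48 ± 0.29 (SE). RP11-629N8.5, opposite RASSF3, a gene of the Ras association domain family, had 2389 and 2131 with BHB and 1537 and 1779 in Control, at 0.46 ± 0.28. RP11-354M1.2 had 2447 and 2453 with BHB and 1662 and 2029 in Control, at 0.42 ± 0.29, and lay opposite CDH1, the E-cadherin gene of epithelial junctions. CDH1 itself had 46 and 38 counts with BHB and 107 and 16 in Control, so its Control libraries lay on both sides of its BHB libraries. Without Control replicate 1 the log2 fold changes were 0.15 for RP11-611O2.5, 0.14 for RP11-629N8.5 and 0.0661 for RP11-354M1.2. Without Control replicate 2 they were 0.93 for RP11-611O2.5, 0.90 for RP11-629N8.5 and 0.90 for RP11-354M1.2, so the sizes of all 3 depended on which Control library was used.

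The most negative fold change was that of CTD-2026K11.4, opposite IMP3, which encodes a protein of the U3 small nucleolar ribonucleoprotein. It had 799 and 775 counts with BHB and 1477 and 1147 in Control. Its TMM-scaled CPM averaged 350 ± 2.58 with BHB and 558 ± 37.0 in Control (SD, n = 2 each). The log2 fold change was -0.67 ± 0.23 (SE) at an unadjusted edgeR p of 0.0182. IMP3 itself had 363 and 390 counts with BHB and 294 and 263 in Control, a log2 fold change of 0.48 ± 0.26 (SE), which was 0.31 without Control replicate 1 and 0.70 without Control replicate 2. Counts of the member were thus lower and those of IMP3 higher in both BHB libraries, and the difference between the 2 fold changes was not tested.

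RP11-229P13.23, wholly opposite SAPCD2, a regulator of spindle orientation, had 1724 and 1587 counts with BHB and 2971 and 2465 in Control, a log2 fold change of -0.66 ± 0.24 (SE). RP11-159D12.6, opposite the splicing factor gene SRSF1, had 1733 and 1791 with BHB and 3015 and 2506 in Control, at -0.59 ± 0.24. AC009133.15, opposite MAZ, had 2299 and 2232 with BHB and 3899 and 3008 in Control, at -0.54 ± 0.23. For each of these 3 members both BHB libraries were lower than both Controls, and their unadjusted edgeR p-values were 0.0210, 0.0334 and 0.0428. CTD-2555O16.4, opposite MTHFD1, an enzyme of folate metabolism, had 976 and 830 counts with BHB and 1476 and 1195 in Control, at -0.51 ± 0.24. AC009133.12, the other member opposite MAZ, had a log2 fold change of -0.16 ± 0.24, so its difference was smaller than its standard error.

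Which Control library was used decided the calls. Without Control replicate 1, 0 members were higher (against 5.84% of all features tested) and 93 lower (55.4%, against 6.38% of all), and the median member had a log2 fold change of -0.27. Without Control replicate 2, 77 were higher (45.8%, against 9.43% of all) and 11 lower (6.55%, against 7.21% of all), and the median was 0.22. Without BHB replicate 1, and without BHB replicate 2, 0 members were called. In the fits that leave out a Control library, the lone Control library is assumed to vary like the BHB pair. Both fits called 32 members in common (19%, against 3.91% of 9815 features tested in both), and for 21 of these the sign was opposite (12.5%, against 2.32% of all). No member was called higher in both, against 0.713% of all features.

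The other 11 were lower with BHB in both fits (6.55%, against 0.876% of all) and were picked out after their values were seen. They included CTD-2026K11.4, RP11-229P13.23, RP11-159D12.6, AC009133.15 and CTD-2555O16.4, described above, RP11-386G11.10 from the tubulin region, and others. RP11-427I6.5, opposite MCM2, a subunit of the replicative helicase, had 2482 and 2508 counts with BHB and 3886 and 3193 in Control. CTD-2659N19.10, opposite PRDX2, a peroxiredoxin gene, and CTD-2369P2.5, opposite MRPL4, were also among them. The log2 fold changes of the 11 with all libraries lay between -0.67 and -0.41, and none was called in the fit of all 4 libraries.

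**Figure D4:**
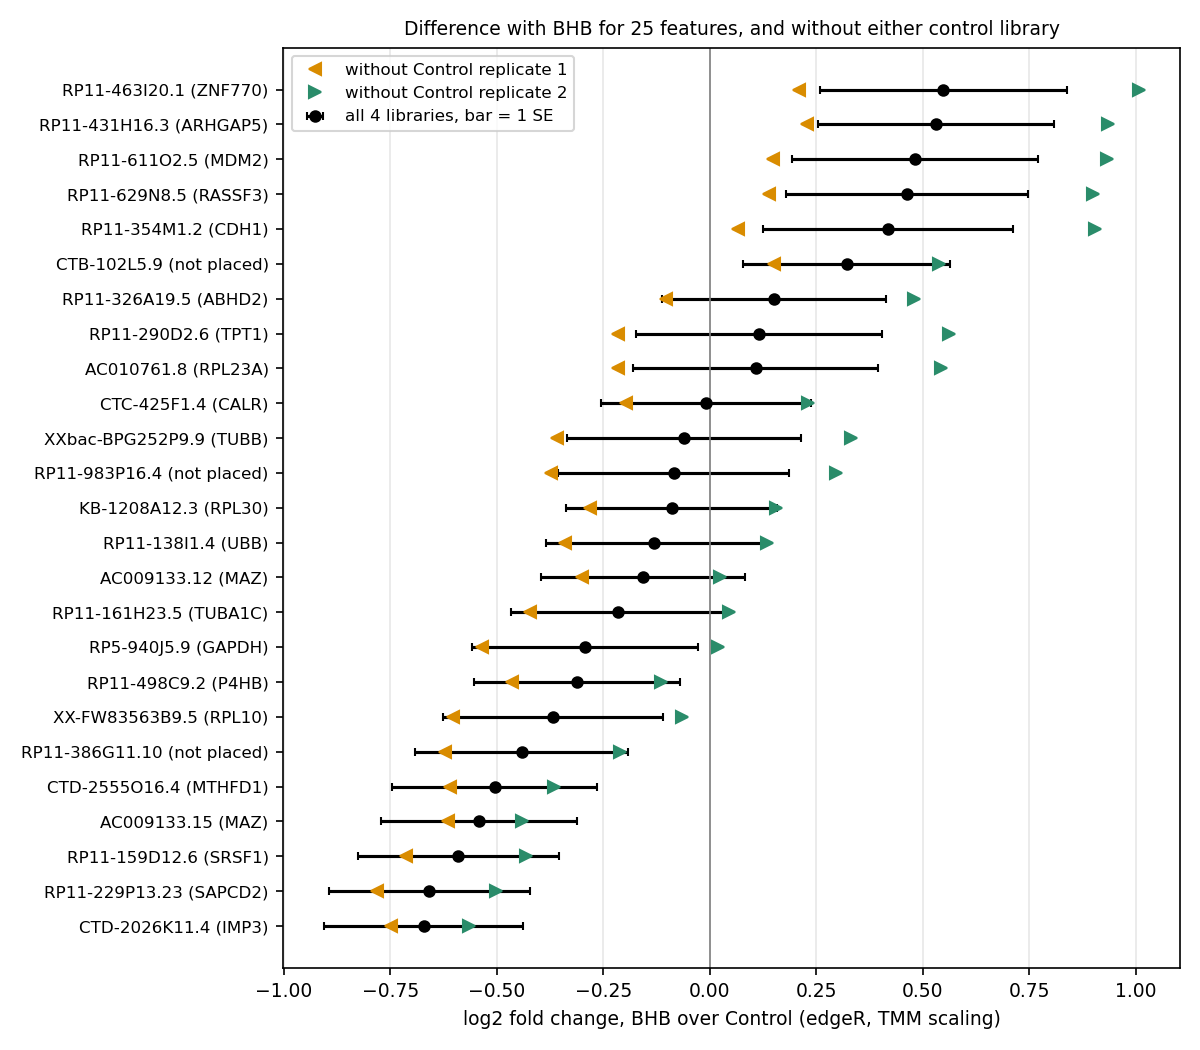
Log2 fold change of BHB over Control (horizontal axis) for the 15 most abundant members and the 10 with the largest differences between groups that do not overlap, from all 4 libraries (black, bars 1 SE), and without Control replicate 1 (orange) or 2 (green). The values without Control replicate 1 lie below those without replicate 2 for each of the 25 members, and 11 of the 25 change sign between them.

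The Control libraries differed less in the members than in the coding genes opposite. In 102 pairs whose coding gene had at least 10 counts in both Control libraries, the log2 ratio of Control replicate 1 over 2, in CPM of the library total, had a median of -0.14 (SD 0.20) for members and 1.14 (SD 0.86) for coding genes. For GAPDH this is seen in its 1791 and 301 counts in Control. In the BHB libraries the same ratio over all 168 members had a median of 0.01 (SD 0.11). In 99 pairs with at least 10 coding-gene counts per library, the BHB SD was 0.11 for members and 0.40 for coding genes. Coding genes, at far lower counts, thus spread more widely in BHB too. The median Control ratio of members was not particular to them. It was -0.16 for all 168 members, for 1243 other clone-named and for 392 antisense-named features. It was -0.15 for 34 features named as divergent transcripts, -0.12 for 36 named LINC and 0.12 (SD 0.80) for 3239 other features. Over 126 pairs with both sides tested, the median log2 fold change was -0.07 for members and -0.23 for coding genes, with median SEs of 0.26 and 0.51, and 0 coding genes were called. Without Control replicate 1 these medians were -0.27 for members and 0.41 for coding genes, and without Control replicate 2 they were 0.21 for members and -0.54 for coding genes. In the other 10 pairs the coding gene was too low to test. The part of the Control difference in these fold changes was not tested.

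**Figure D5:**
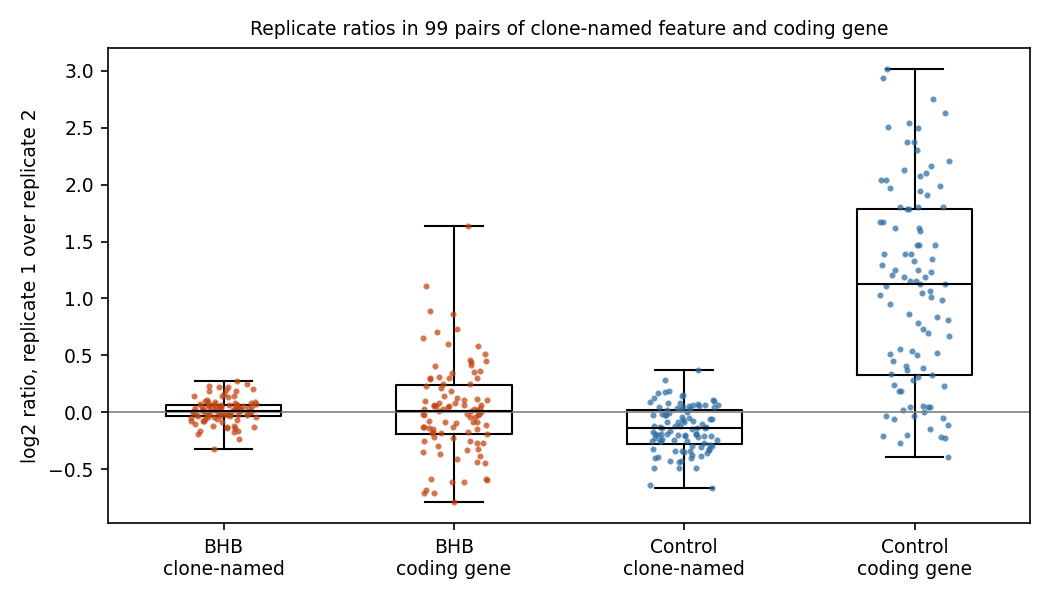
Log2 ratio of replicate 1 over replicate 2 (CPM of the library total) within BHB and within Control, for members and for the coding genes opposite, in 99 pairs whose coding gene had at least 10 counts in each of the 4 libraries. Boxes give the quartiles and whiskers the lowest and highest values; coding genes in Control have a median of 1.12, and the other 3 boxes have medians between -0.14 and 0.02.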

How the data were processed

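The authors deposited 1 table of raw, unnormalized counts per feature, which also lists exon lengths, for 2 BHB and 2 Control libraries of C4-2 cells. The submitters' processing notes name HISAT2 2.2.1, featureCounts 2.0.3, edgeR, limma and the build GRCh38 (hg38). Which annotation release and strand setting were used is not given in the sources used here. Groups follow the labels.

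All rows had a name. The whole table was fitted with edgeR 4.0.16 in R 4.3.3 (filterByExpr, TMM, robust quasi-likelihood F-test, group as the only term, Benjamini-Hochberg FDR under 0.05 over all tested features); DESeq2 1.42.0 was an alternative, as were other scalings, filters and thresholds, a replicate block and leaving out each library. The SE of a fold change comes from the F statistic. The fit was tested on simulated counts whose replicates varied less than these libraries. That test does not show how large a change could be called here. Total counts lay between 2233711 and 2565080 per library, which limits the precision of low coding genes.

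Placement by name, which was planned, reached 5 member names in GENCODE release 29, 2 of them with the same exon length, so placement by exon length between flanking rows was added after the data were seen. It is a match of position and not a new name, and coordinates are those of release 29. Density is the mean count per kilobase of the exon length that the table lists.

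Named with counts were the 15 most abundant members, the 5 most positive and 5 most negative fold changes among members whose groups did not overlap, called members (none), members matched by name and length, and the 3 on each side of the threshold. Coding genes of extreme pairs, and members called without each Control library, were chosen after their values were seen; 2 of these last are not reported here. The members and lists were chosen with earlier results of these data known. Without molecular identifiers, reads need not be independent molecules.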

Additional observations from a re-analysis of the deposited data

How the results depend on the processing

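Across the 4 fits that leave out 1 library each, between 0 and 1035 features of the whole table were called higher and between 0 and 791 lower, against 0 and 0 with all libraries. Of the members, between 0 and 77 were called higher and between 0 and 93 lower, and their median log2 fold change lay between -0.27 and 0.22, against -0.07. Under RLE, upper quartile and total-count scaling, both other filters, DESeq2, an FDR under 0.01 and an absolute log2 fold change of at least 1, no feature was called.

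The log2 fold changes over the fits without 1 library crossed 0 in 14 named members. They lay between -0.54 and 0.0198 for RP5-940J5.9, between -0.22 and 0.56 for RP11-290D2.6, between -0.34 and 0.13 for RP11-138I1.4, between -0.21 and 0.54 for AC010761.8, between -0.10 and 0.48 for RP11-326A19.5, between -0.42 and 0.0456 for RP11-161H23.5 and between -0.28 and 0.16 for KB-1208A12.3. They lay between -0.30 and 0.0245 for AC009133.12, between -0.20 and 0.23 for CTC-425F1.4, between -0.36 and 0.33 for XXbac-BPG252P9.9, between -0.37 and 0.30 for RP11-983P16.4, between -0.32 and 0.23 for AC005523.2, between -0.43 and 0.35 for AC091133.1 and between -0.43 and 0.21 for RP11-56G10.2. In each of these the lowest value was that without Control replicate 1 and the highest that without Control replicate 2. CTC-425F1.4, at -0.0087 with all libraries, was also positive with upper quartile scaling (0.0296), total counts (0.0358) and the replicate block (0.0028). The cause was not tested.

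Placement by name gave 3 of 3 members denser than the coding gene, and by name with the same exon length 2 of 2, since fewer members could be placed. Members higher in both BHB libraries without overlap numbered 47 with total counts (28%, against 19.7% of all tested features). With TMM scaling they numbered 15 (8.93%, against 15.1% of all tested features). The same replicate numbers occur in both groups. The correlation of same-numbered deviations from the group means was -0.018 over 9295 features. With 2 libraries per group, the deviation of replicate 2 mirrors that of replicate 1. This value therefore cannot say whether the numbers pair the libraries. With the replicate block, 0 features were called in either direction, 166 passed an unadjusted p under 0.05 and the members' median was -0.05. With 2 libraries per group at this depth, low coding genes have wide errors.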
